A study of Rattus norvegicus with 16 samples.

Results

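Phosphatidylcholine is the main phospholipid of liver membranes and of the surface of very low density lipoproteins. Hepatocytes make it from choline through the Kennedy pathway, in which choline is phosphorylated, activated with CTP and joined to diacylglycerol, and by methylation of phosphatidylethanolamine, a route prominent in liver. Choline that is not phosphorylated is oxidised to betaine in mitochondria, and a diet poor in choline is known to cause fatty liver in rats. The account covers 10 genes of these steps: the choline transporter Slc44a1, the kinases Chka, Chkb and Etnk1, the cytidylyl transferases Pcyt1a and Pcyt2, the phosphotransferases Chpt1 and Cept1, the methyltransferase Pemt and the choline dehydrogenase Chdh. They were chosen by symbol. Each was represented by the probe set with the highest mean over all arrays among those that the platform annotation assigns to that symbol alone. All 10 of the 10 genes, with 15 probe sets in all, were on the array and passed the filter on low values (above 3.68 log2 on at least 4 arrays), among 11433 genes that did so.

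Livers of 16 male F344 rats, an inbred strain, were profiled with 1 array (Affymetrix RG-230 PM) per rat. The rats, 4 weeks old at the start, were kept for 3 weeks in 4 groups of 4: normal CE-2 chow with air and dehydrogenized water (control, normal diet), the same chow with hydrogen-rich water holding 0.7 mM hydrogen and with 2% hydrogen in the air (hydrogen, normal diet), and the CDAA diet, an amino acid-defined feed deficient in choline, under either condition (control, CDAA diet and hydrogen, CDAA diet). The CDAA diet was set against chow, and no group received an amino acid-defined diet with choline. The lack of choline and the other differences between the feeds therefore cannot be told apart.

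The deposited values were normalised log2 signals, with array medians of 4.33 to 4.38. All 7 measured hepatocyte markers exceeded the filter line on every array. The summed signal of 9 macrophage markers was 11.2 to 11.9 log2 in the control, 11.5 to 11.7 in the hydrogen group of the normal diet, and 11.9 to 12.3 and 12.0 to 12.6 in the corresponding CDAA groups. Of these 9 markers 5 rose and 1 fell with the diet in control rats, and 7 rose in hydrogen rats, where 27.3% and 32.1% of all genes rose. Of 9 stellate cell markers 5 and 7 rose. Of 6 tested bile duct markers 3 rose under each condition, and the summed signal of all 7 on the array was 7.81 to 7.99 log2 on the normal and 8.23 to 9.15 on the CDAA diet. Both blood markers fell in control rats and 1 of 2 in hydrogen rats (all genes: 13.3% and 17.3%). The part of these cell types in the diet differences below was not tested, and in whole liver fewer cells of a type cannot be told apart from less RNA per cell. Control normal-diet replicate 4 lay at −13.44 on the leading principal component (66% of the variance), between the other 3 arrays of its group (−35.09 to −32.28) and the CDAA arrays (23.85 and above). Without it the same number of the 10 genes, 4, passed in the diet comparison of control rats.

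The promoters of Chka, Chkb and Chdh are shown because Chka and Chdh had the largest diet differences of the 10 genes in control rats and Chkb is the paralog that makes the same product as Chka. Each is the 250 bases before the annotated start in RefSeq (GRCr8), 5′ to 3′ on the gene's strand: chr1:210505865-210506114 (plus strand) for Chka, chr7:122383950-122384199 (minus strand) for Chkb and chr16:5200551-5200800 (plus strand) for Chdh. Capitals mark matches, on either strand, to the motifs that were searched: the E-box CACGTG, the AP-1 site TGANTCA, the GC box GGGCGG, the CCAAT box CCAAT, the core of the cyclic AMP response element TGACG and the nuclear receptor core site AGGTCA.
Chka: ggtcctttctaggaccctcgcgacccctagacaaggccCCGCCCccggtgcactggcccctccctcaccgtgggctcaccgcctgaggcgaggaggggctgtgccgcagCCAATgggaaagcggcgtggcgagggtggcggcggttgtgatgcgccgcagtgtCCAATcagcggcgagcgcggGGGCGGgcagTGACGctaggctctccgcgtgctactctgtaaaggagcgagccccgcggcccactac
Chkb: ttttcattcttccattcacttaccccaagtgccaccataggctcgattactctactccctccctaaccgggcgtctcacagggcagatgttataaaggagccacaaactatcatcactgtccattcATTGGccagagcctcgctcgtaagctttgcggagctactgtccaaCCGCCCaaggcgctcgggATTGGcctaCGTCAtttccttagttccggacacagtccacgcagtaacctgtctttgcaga
Chdh: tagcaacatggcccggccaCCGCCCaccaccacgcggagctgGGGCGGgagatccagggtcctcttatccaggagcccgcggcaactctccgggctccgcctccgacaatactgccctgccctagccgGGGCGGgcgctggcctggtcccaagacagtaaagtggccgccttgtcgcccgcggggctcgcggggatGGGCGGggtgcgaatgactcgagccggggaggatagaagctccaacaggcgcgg
The Chka window held 2 GC boxes, 2 CCAAT boxes and 1 TGACG core, and the Chkb window held the same kinds, with 1, 2 and 1 matches. Chdh had 4 GC boxes and none of the other motifs. All 10 genes matched a promoter. A GC box occurred in 9 of the 10 windows, against 32.4% of all 27457 promoters and 57.0% of the 9501 promoters of genes tested here. CCAAT was found in 5 of 10 (34.3% of all promoters, 35.5% of those of tested genes) and TGACG in 5 of 10 (19.0% and 27.3%). The E-box (5.79% and 8.2%), the AP-1 site (6.36% and 4.66%) and the nuclear receptor core site (13.7% and 11.3%) were in none of the 10 windows. These matches describe letters in a short window and not binding.

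Choline kinase alpha, Chka, which phosphorylates choline as the entry step of the Kennedy pathway, was the only one of the 10 genes called with hydrogen, and only on the CDAA diet. On the normal diet the 4 control arrays read 7.68, 7.69, 8.04 and 8.13 log2, and the 4 hydrogen arrays 7.69, 8.02, 7.51 and 7.52. The CDAA controls read 8.88, 8.38, 8.68 and 8.86, and the CDAA hydrogen arrays 7.47, 7.63, 7.51 and 7.91. Every CDAA control array thus lay above every array of the other 3 groups, and those 3 groups overlapped one another. With the diet in control rats Chka rose 1.76-fold (log2 0.815 ± 0.144, standard error of the fit, n = 4 per group, limma adjusted p = 0.000435). Under hydrogen the diet difference was −0.055 log2 (95% interval −0.36 to 0.25, adjusted p = 0.775). On the CDAA diet Chka fell 2.10-fold with hydrogen (log2 −1.07 ± 0.144, adjusted p = 0.00264), the seventh largest decrease among the 21 genes called lower there.

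In that comparison 1 of the 10 genes was called, beside 0.376% of all genes (43 of 11433), 0.192% higher and 0.184% lower. On the normal diet the hydrogen difference of Chka was −0.20 log2 (95% interval −0.50 to 0.10, adjusted p = 0.814). The test of whether the hydrogen difference varied with the diet gave −0.87 log2 (95% interval −1.30 to −0.44), which did not pass limma's adjustment over all probe sets (adjusted p = 0.233, 0.0678 to 0.451 over the alternatives). The call on the CDAA diet depended on all 4 groups sharing 1 estimate of the spread. Fitted on the CDAA arrays alone, the same −1.07 log2 had an adjusted p = 0.0827, while 25 of 26 alternatives kept the call (adjusted p = 6e-04 to 0.0827 over all 26). On the CDAA diet 0 of the 9 macrophage and 0 of the 9 stellate markers were called with hydrogen. By limma 2 and 1 had an unadjusted p under 0.05, beside 12.6% of all genes. All 9 macrophage and 7 of the 9 stellate markers were higher with hydrogen, as were 6066 of all 11433 genes. Their median differences were 0.21 and 0.08 log2, against 0.0075 over all genes. The part of these cells in the Chka difference was not tested.

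**Figure D1:**
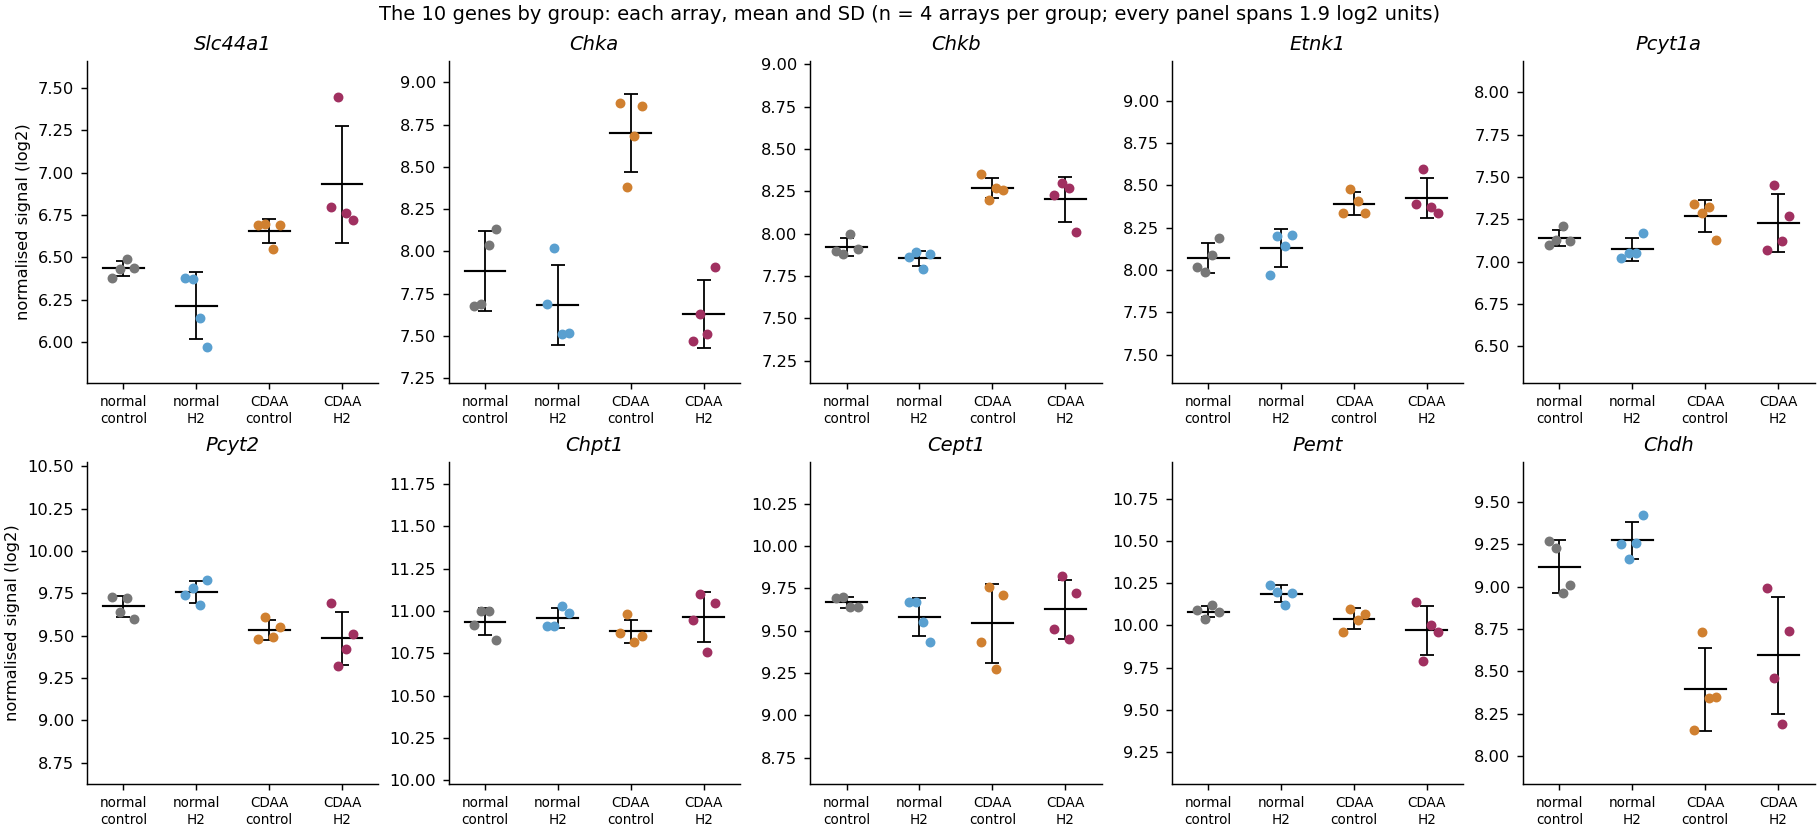
Normalised log2 signal (vertical axis) of the 10 genes on each array, by group (horizontal axis, H2 for hydrogen). Points are arrays, bars the mean and SD of 4. All panels span the same range of log2 units but start at different levels. Chka stood at 8.38 to 8.88 in the CDAA controls and at or below 8.13 elsewhere, while Chdh was lower on each CDAA diet group than on the normal diet.

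By limma, 3 of the 10 genes rose and 1 fell with the CDAA diet in control rats, against 27.3% and 13.3% of all genes tested (40.6% in all). In hydrogen rats 3 rose and 3 fell, against 32.1% and 17.3% (49.5% in all). These shares lie near the background. The median difference of the 10 genes was 0.04 log2 in control rats and 0.03 in hydrogen rats, and that of all genes 0.04 and 0.05. Groups did not overlap for 5 of the 10 genes in control rats (38% of all genes) and for 4 in hydrogen rats (43.8%).

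Chkb, the other choline kinase, rose by the same amount under either condition. Its arrays read 7.88 to 8.00 log2 in the control and 7.79 to 7.89 in the hydrogen group on the normal diet, and 8.20 to 8.35 and 8.01 to 8.30 on the CDAA diet. All 8 CDAA arrays were above all 8 normal-diet arrays. The difference was 0.35 ± 0.0631 log2, or 1.27-fold, in control rats (adjusted p = 0.000543) and again 0.35 in hydrogen rats (adjusted p = 0.00039). With hydrogen on the CDAA diet Chkb differed by −0.07 log2 (95% interval −0.20 to 0.07, adjusted p = 0.732).

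Etnk1, an ethanolamine kinase, which opens the parallel branch to phosphatidylethanolamine, also rose with the diet. It read 7.99 to 8.19 log2 (control) and 7.97 to 8.21 (hydrogen) on the normal diet, and 8.34 to 8.48 and 8.34 to 8.60 on the CDAA diet, again without overlap. It rose 1.25-fold in control rats (log2 0.32 ± 0.072, adjusted p = 0.00261) and 1.23-fold in hydrogen rats (adjusted p = 0.00366). The second probe set of Etnk1, at 4.06 to 4.52 log2 over all arrays, differed by 0.01 and −0.13 log2 and was not called. Averaged over both sets, the difference in hydrogen rats was 0.08 log2 (adjusted p = 0.255), which ends that call. The other ethanolamine kinase, Etnk2, had no probe set assigned to it alone and was not tested.

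The cytidylyl transferases follow the kinases. Pcyt1a encodes the enzyme that is usually rate-limiting for phosphatidylcholine synthesis from choline. Its arrays read 7.10 to 7.21 log2 (control) and 7.02 to 7.17 (hydrogen) on the normal diet and 7.13 to 7.34 and 7.07 to 7.45 on the CDAA diet, with overlap throughout. The diet differences of 0.13 log2 (95% interval −0.03 to 0.29, adjusted p = 0.201) and 0.16 (−0.01 to 0.32, adjusted p = 0.107) were not called, although the second passed without CDAA hydrogen replicate 1 (log2 0.21, adjusted p = 0.0404). A dimmer probe set of Pcyt1a lay above the filter line on 9 of 16 arrays. It was lower with the diet in hydrogen rats (3.90 against 3.61 log2, adjusted p = 0.00163, in a comparison where 44.8% of all probe sets were called), so the sets of this gene disagree in direction near background.

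Pcyt2, the ethanolamine counterpart, read 9.73, 9.64, 9.72 and 9.60 log2 in controls and 9.74, 9.78, 9.68 and 9.83 in hydrogen rats on the normal diet. On the CDAA diet it read 9.48, 9.61, 9.49 and 9.55 in controls and 9.69, 9.32, 9.42 and 9.51 in hydrogen rats. It fell 1.21-fold with the diet in hydrogen rats (log2 −0.27 ± 0.0704, adjusted p = 0.00532), with 1 CDAA array reaching into the normal-diet range. In control rats the difference was −0.14 log2 (95% interval −0.29 to 0.01, adjusted p = 0.136). The test of the difference between these 2 diet effects gave −0.13 log2 (adjusted p = 0.717).

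The last Kennedy step joins the activated head group to diacylglycerol. Chpt1, the cholinephosphotransferase, read 10.76 to 11.10 log2 over all 16 arrays, and Cept1, which accepts choline and ethanolamine, 9.27 to 9.82. Neither passed any of the 5 tests. The diet differences of Chpt1 were −0.06 log2 (95% interval −0.21 to 0.09) in control and 0.005 (−0.15 to 0.16) in hydrogen rats, and those of Cept1 −0.125 (−0.35 to 0.10) and 0.045 (−0.18 to 0.27). A second probe set of Chpt1 was likewise not called. The SD of Cept1 (n = 4) was 0.032 log2 in controls and 0.115 in hydrogen rats on the normal diet, and 0.233 and 0.174 on the CDAA diet.

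**Figure D2:**
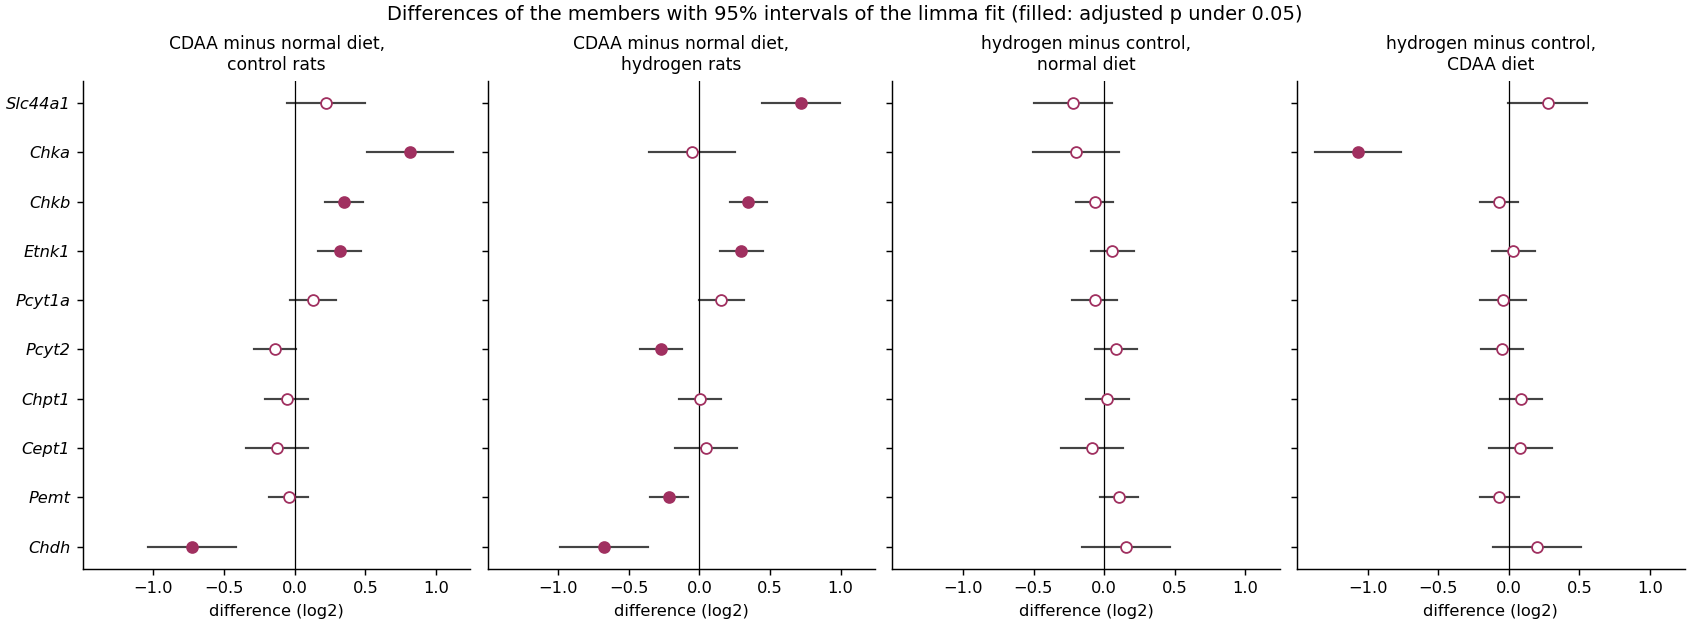
Differences in log2 signal (horizontal axis) of the 10 genes (rows) in 4 comparisons (panels), with 95% intervals from the limma fit. Filled points had an adjusted p under 0.05. Chka stands at 0.815 with diet in control rats and at −1.07 with hydrogen on the CDAA diet, and the other 9 genes have open points in both hydrogen panels.

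Pemt, which methylates phosphatidylethanolamine to phosphatidylcholine in the liver, read 10.09, 10.04, 10.12 and 10.08 log2 in controls and 10.24, 10.20, 10.12 and 10.19 in hydrogen rats on the normal diet. The CDAA arrays read 9.96, 10.10, 10.03 and 10.07 in controls and 10.14, 9.79, 10.00 and 9.96 under hydrogen. The diet difference in control rats was −0.04 log2 (95% interval −0.18 to 0.09, adjusted p = 0.643). In hydrogen rats Pemt fell 1.16-fold (log2 −0.215 ± 0.0646, adjusted p = 0.0133, up to 0.0493 over the alternatives). That group's lowest array was at 9.79 and its highest overlapped the normal diet. The difference between the diet effects was −0.17 log2 (adjusted p = 0.58).

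Pcyt2 and Pemt had the highest positive correlation between arrays on the CDAA diet, a relation that did not pass adjustment. Over the 8 CDAA arrays Pearson's r was 0.915 (exact permutation p = 0.00184, two-sided) and Spearman's rho 0.862 (exact permutation p = 0.00873). Over the 8 normal-diet arrays r was 0.744 (exact permutation p = 0.0364) and rho 0.802 (exact permutation p = 0.0204). The 8 arrays of each diet join control and hydrogen rats. With each group's mean taken off, a check added after the data were seen, r was 0.914 on the CDAA diet (exact permutation within groups, p = 0.0295) and 0.533 on the normal diet (exact permutation within groups, p = 0.231). Without the 2 arrays farthest from the median of Pcyt2, r was 0.718 and 0.769. The pair was singled out after all 90 relations (45 pairs on each diet) had been computed, and none passed adjustment over them. The adjusted exact permutation p of r was 0.103 on the CDAA and 0.375 on the normal diet, and that of rho 0.314 on each. Other pairs were as strong on the normal diet. There r was −0.89 for Chka and Chdh (adjusted exact permutation p = 0.103) and 0.915 for Cept1 and Slc44a1 (adjusted exact permutation p = 0.375).

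**Figure D3:**
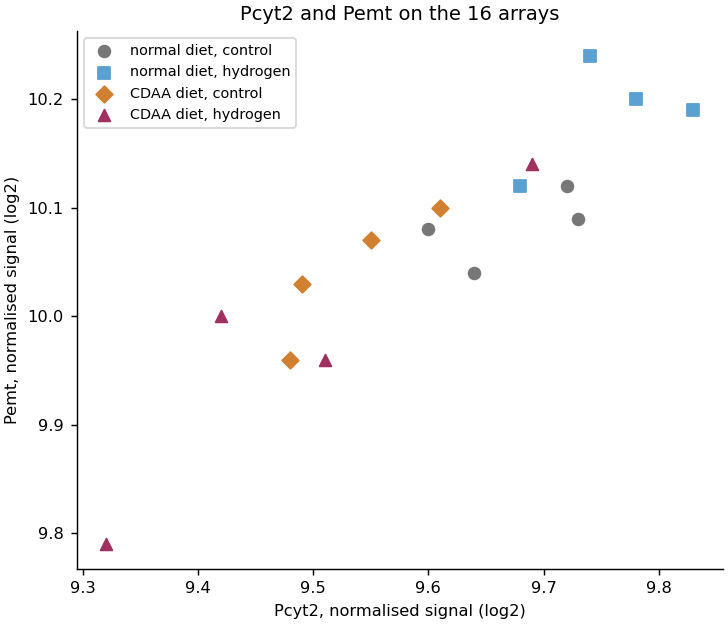
Pemt (vertical axis) against Pcyt2 (horizontal axis), both in log2 signal, 1 point per array and 1 marker per group. The CDAA hydrogen array with the lowest Pcyt2 (9.32) also had the lowest Pemt (9.79).

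Chdh, the mitochondrial dehydrogenase that starts the oxidation of choline to betaine, had the largest decrease of the 10 genes in each diet comparison. It read 9.27, 9.23, 8.96 and 9.01 log2 in controls and 9.25, 9.16, 9.26 and 9.42 in hydrogen rats on the normal diet. On the CDAA diet the controls read 8.15, 8.73, 8.34 and 8.35 and the hydrogen rats 8.99, 8.46, 8.19 and 8.74. Within each condition no CDAA array reached the normal-diet range. Chdh fell 1.65-fold in control rats (log2 −0.725 ± 0.147, adjusted p = 0.00124) and 1.60-fold in hydrogen rats (adjusted p = 0.00159). With hydrogen it differed by 0.16 log2 on the normal diet (95% interval −0.16 to 0.47) and by 0.20 on the CDAA diet (−0.11 to 0.51), neither of them called.

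Slc44a1, a choline transporter of the plasma membrane and mitochondria, gave different answers by probe set. The representative set read 6.38, 6.43, 6.49 and 6.44 log2 in controls and 6.38, 6.37, 6.14 and 5.97 in hydrogen rats on the normal diet. The CDAA arrays read 6.69, 6.70, 6.55 and 6.69 in controls and 6.80, 7.45, 6.76 and 6.72 under hydrogen. All 8 CDAA arrays were above all normal-diet arrays. The diet difference in hydrogen rats was 0.72 ± 0.131 log2, or 1.64-fold (adjusted p = 0.000403), and 0.545 without CDAA hydrogen replicate 2, the array at 7.45 (adjusted p = 0.000159). In control rats it was 0.22 log2 (95% interval −0.05 to 0.50, adjusted p = 0.203). Without that same array, which belongs to another group but widens the shared spread, the same 0.22 passed (adjusted p = 0.0377), as it did when only the control arrays were fitted (adjusted p = 0.0141).

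The next probe set of Slc44a1 fell with the diet in control rats. It read 5.89, 5.84, 6.11 and 5.76 log2 on the normal diet and 5.50, 5.61, 5.49 and 5.40 on the CDAA diet (log2 −0.40 ± 0.0843, adjusted p = 0.00164, where 35.5% of all probe sets were called). In hydrogen rats the normal-diet arrays read 5.74 to 5.96 and the CDAA arrays 5.65 to 5.99, a difference of −0.035 log2 (adjusted p = 0.755). With hydrogen on the CDAA diet it differed by 0.29 log2, the groups not overlapping (adjusted p = 0.194), and the representative set by 0.275 (adjusted p = 0.438). The remaining, dimmer set (3.59 to 4.11 log2) was not called in any comparison. The mean of the 3 sets differed with the diet by −0.12 log2 in control rats (adjusted p = 0.24) and by 0.19 in hydrogen rats (adjusted p = 0.0656). A direction for the gene as a whole is therefore not given. The hydrogen difference varied with diet by 0.495 log2 for the representative and 0.365 for the next set, and neither passed (adjusted p = 0.466 and adjusted p = 0.39).

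**Figure D4:**
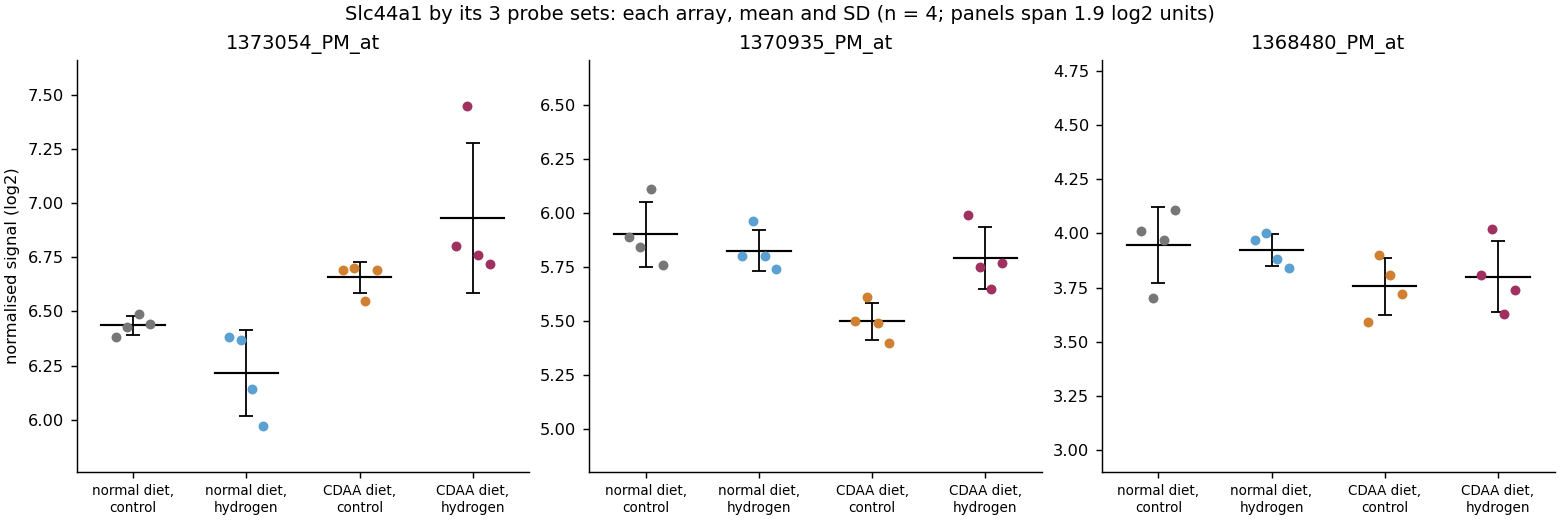
Normalised log2 signal (vertical axis) of the 3 Slc44a1 probe sets (panels) by group (horizontal axis), with each array, the mean and the SD of 4. With the diet in control rats the set at left was 0.22 log2 higher and the middle set 0.40 log2 lower.

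With hydrogen on the normal diet none of the 10 genes was called by limma, and none had an unadjusted p under 0.05 in its representative set. All genes tested gave 1 call (0.00875%), and 813 (7.11%) had an unadjusted p under 0.05. By representative set, groups overlapped for all 10 genes there (no overlap in 5.69% of all genes). Of the further probe sets, the dimmer of Pcyt1a was under 0.05 (limma unadjusted p = 0.0222). For it and for the second of Chpt1 the groups did not overlap. On the CDAA diet Chka was the only call, and Chka and Slc44a1 were the 2 genes whose groups did not overlap (3.76% of all genes). Chka alone of the 10 had an unadjusted p under 0.05 there in its representative set, against 12.6% of all genes. Of the further probe sets, the next of Slc44a1 (limma unadjusted p = 0.00335) and the second of Chpt1 (limma unadjusted p = 0.0412) were also under 0.05. The test of the interaction called none of the 10 and 0 of all genes (0%). At an unadjusted p under 0.05 it held, by representative set, Chka and Slc44a1 among the 10 and 1059 genes (9.26%) in all. The next set of Slc44a1 (limma unadjusted p = 0.00744) and the dimmer of Pcyt1a (limma unadjusted p = 0.0137) were also under 0.05.

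The 3 genes whose pattern was most like that of Chka were Ier2, an immediate early gene, Ercc6l2, a helicase of the DNA repair family, and Alkbh1, a nucleic acid demethylase. Likeness was the smaller of the Pearson correlations over the 8 arrays of each diet, which was 0.862 for Ier2, 0.818 for Ercc6l2 and 0.812 for Alkbh1. These were the highest of all genes tested and carry no p. The 8 arrays of each diet join control and hydrogen rats, and group means were not taken off. The choice itself therefore favours genes that, like Chka, fall with hydrogen on the CDAA diet. In that comparison the 3 genes differed by −0.635, −0.16 and −0.36 log2, none of them called (adjusted p = 0.227, adjusted p = 0.45 and adjusted p = 0.227).

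Other genes of choline and phospholipid metabolism were followed in 4 lists, with 57 of 70 genes tested. In control rats 15 rose and 17 fell with the diet, where 27.3% of all genes rose and 13.3% fell. In hydrogen rats 24 rose and 15 fell, where 32.1% of all genes rose and 17.3% fell. The counts of each list below are to be read against these shares. With hydrogen 0 of the 57 were called by limma on either diet (all genes: 0.00875% and 0.376%). At an unadjusted p under 0.05 there were 3 on the normal and 10 on the CDAA diet, beside 7.11% and 12.6% of all genes.

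Of 9 genes of choline transport and oxidation, 2 rose and 5 fell in control rats and 3 rose and 6 fell in hydrogen rats. Of all genes 27.3% rose and 13.3% fell in control rats and 32.1% and 17.3% in hydrogen rats. The list's median difference was −0.35 and −0.26 log2, against 0.04 and 0.05 over all genes. Of the carriers, Flvcr2 and Slc44a2 rose under either condition. Slc44a4 and Slc22a2, also carriers, had group means of 3.54 to 3.80 and 3.68 to 3.865 log2, near the filter line. In hydrogen rats Slc44a4 was called higher and Slc22a2 lower (adjusted p = 0.0401 and adjusted p = 0.0358). Neither was called in control rats. Flvcr2, a choline transporter of the FLVCR family, went from 4.11 to 4.75 log2 on the normal diet to 5.67 to 5.89 on the CDAA diet in controls, 2.85-fold (adjusted p = 8.99e-06), and rose 3.33-fold in hydrogen rats. Slc44a2, a relative of Slc44a1, rose 1.33-fold and 1.52-fold (adjusted p = 0.0045 and adjusted p = 0.000192). Aldh7a1, which oxidises betaine aldehyde, was 1.42-fold and 1.45-fold lower. Dmgdh, the dimethylglycine dehydrogenase, was 1.75-fold lower in control rats (adjusted p = 1.4e-06) and 1.58-fold lower in hydrogen rats. Bhmt2, a relative of the betaine-homocysteine methyltransferase Bhmt, was 1.63-fold and 1.57-fold lower. Bhmt itself had no probe set assigned to it alone and was not tested.

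The next list held 15 genes of phospholipid synthesis and of the turnover of the methyl donor of Pemt. In control rats 3 rose and 6 fell (all genes: 27.3% and 13.3%), and in hydrogen rats 4 rose and 5 fell (all genes: 32.1% and 17.3%). The median difference of the 15 was −0.12 and −0.11 log2. Mat1a, Ahcy and Gnmt belong to the methyl donor turnover and not to phospholipid synthesis itself. All of them were among the 6 that fell in control rats, and Ahcy and Gnmt among the 5 in hydrogen rats. Gnmt, which uses up S-adenosylmethionine, the methyl donor of Pemt, fell 2.88-fold in control rats (adjusted p = 3.94e-05) and 3.04-fold in hydrogen rats (adjusted p = 1.46e-05). Selenoi, the ethanolaminephosphotransferase, fell 1.31-fold and 1.28-fold, while Pisd, which makes phosphatidylethanolamine from phosphatidylserine in mitochondria, rose 1.31-fold and 1.24-fold. Agpat3, a lysophosphatidic acid acyltransferase, rose 1.94-fold and 2.10-fold. A further probe set of it rose 1.52-fold and 1.75-fold, and another 1.69-fold and 1.80-fold, all called. A dimmer set of Agpat3 was lower in hydrogen rats (4.32 against 4.08 log2, adjusted p = 0.0183). Lpin2, a phosphatidate phosphatase, rose 1.48-fold in hydrogen rats (adjusted p = 0.015) and differed by 0.10 log2 in control rats (adjusted p = 0.689). The difference between its diet effects was not called (limma adjusted p = 0.579).

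Of 19 genes of phosphatidylcholine remodelling and breakdown, 5 rose and 4 fell in control rats and 8 rose and 4 fell in hydrogen rats, near the shares of all genes (27.3% and 13.3%, and 32.1% and 17.3%). Their median difference was −0.08 and 0.09 log2. Pla2g15, the lysosomal phospholipase A2, rose 2.09-fold (adjusted p = 3.09e-05) and 3.00-fold (adjusted p = 7.51e-07). Pld3, a lysosomal member of the phospholipase D family, rose 1.88-fold and 2.32-fold, and the lysophospholipid acyltransferase Mboat1 1.49-fold and 1.95-fold. Pla2g12a, a secreted phospholipase A2, rose 2.10-fold in hydrogen rats and differed by 0.39 log2 in control rats (adjusted p = 0.152). Plaat3, a phospholipase and acyltransferase, fell 1.45-fold in control rats (adjusted p = 0.0156) and differed by −0.34 log2 in hydrogen rats (adjusted p = 0.0953). For neither gene was the difference between the diet effects called (limma adjusted p = 0.517 and adjusted p = 0.828).

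Of 14 genes of transfer, export and sphingomyelin metabolism, 5 rose and 2 fell in control rats, near the shares of all genes (27.3% and 13.3%). In hydrogen rats 9 rose and 0 fell (all genes: 32.1% and 17.3%), all by limma, with 0.17 and 0.31 log2 as the median difference in control and hydrogen rats. Abcb4, which moves phosphatidylcholine into bile, rose 1.52-fold and 1.72-fold (adjusted p = 0.00158 and adjusted p = 0.000159). Pitpnb, a transfer protein for phosphatidylinositol and phosphatidylcholine, rose 1.45-fold and 1.31-fold, and the sphingomyelinase Smpd2 1.28-fold and 1.35-fold. The phosphatidylcholine transfer protein Pctp (1.45-fold) and the sphingomyelin synthase Sgms1 (1.36-fold) rose in hydrogen rats. In control rats Pctp and Sgms1 differed by 0.20 and 0.29 log2 and were not called (adjusted p = 0.217 and adjusted p = 0.152). For neither was the difference between the diet effects called (limma adjusted p = 0.574 and adjusted p = 0.861). Atp8b1, a phospholipid flippase of the bile canaliculus, fell 1.84-fold in control rats (adjusted p = 0.00189) and differed by −0.425 log2 in hydrogen rats (adjusted p = 0.0781). The difference between its diet effects was not called (limma adjusted p = 0.634).

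**Figure D5:**
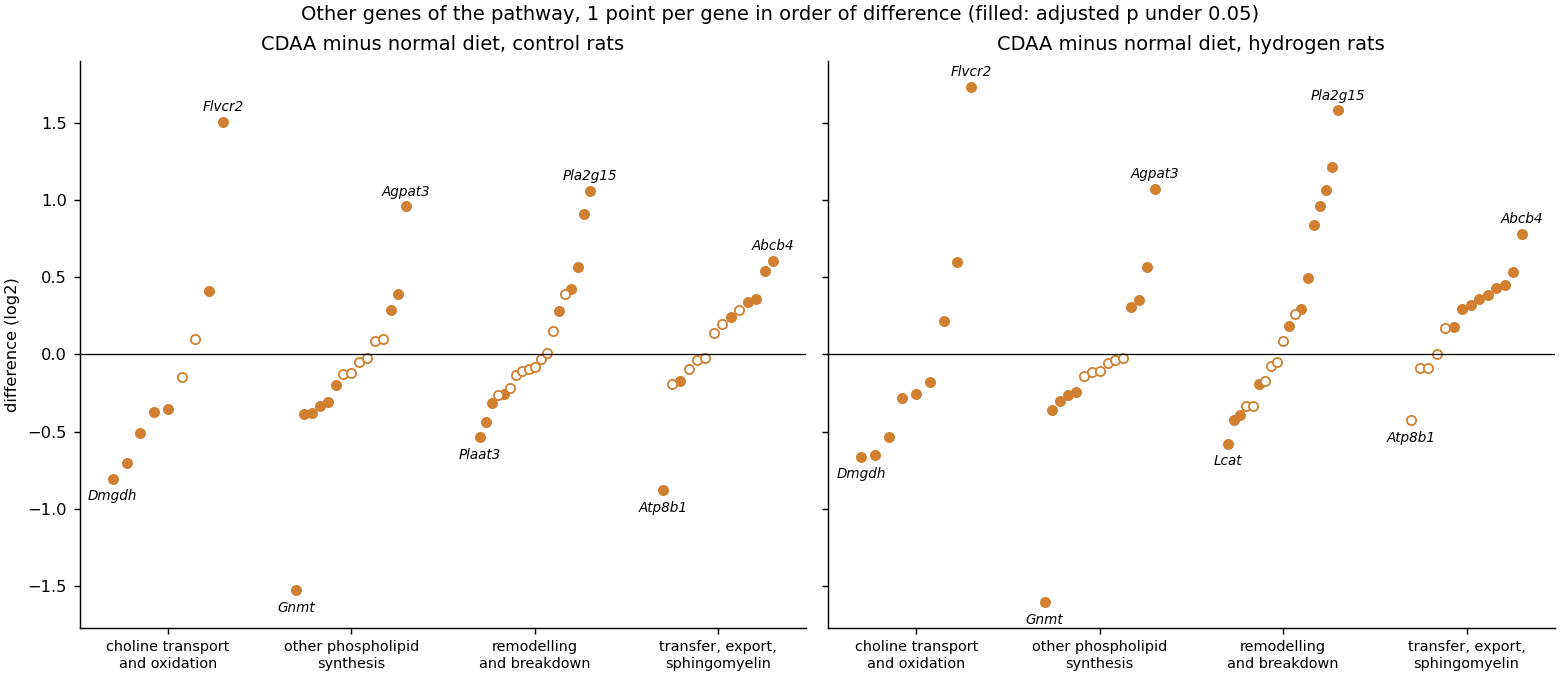
Difference in log2 signal between the CDAA and the normal diet (vertical axis) for 57 genes in 4 lists (horizontal axis), in control rats (left) and hydrogen rats (right). Each point is a gene, in order within its list, and filled points had an adjusted p under 0.05. Flvcr2 and Gnmt lie at the extremes, at 1.51 and −1.53 in control rats.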

How the data were processed

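Per the labels' protocols, liver was kept in RNAlater, RNA was isolated on RNeasy columns and biotin-labelled from the poly(A) end. The authors deposited log2 values per probe set, made with RMA in Affymetrix Expression Console per the submitters' processing notes. RMA equalises the arrays' distributions, so a shift of all transcripts would not show. The labels name 4 rats per group and no batch.

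Of 31139 probe sets, 97 array controls were left out, and 22634 were tested because they lay above 3.68 log2, the overall 30th percentile, on 4 or more arrays. Names came from the platform annotation (19068 probe sets with 1 symbol, 573 with several and 11407 not listed), of which 18989 were matched to RefSeq GRCr8 through the Entrez identifier. A mean for each group was fitted to all 16 arrays with limma 3.58.1 in R 4.3.3 (lmFit, eBayes), Benjamini-Hochberg adjustment ran over all 22634 within a contrast, and an adjusted p under 0.05 was a call. An error after ± is limma's standard error, intervals are 95%, and the code was tested on simulated data. Correlations used exact permutation in scipy 1.17.1, and figures matplotlib 3.10.9 in Python 3.11.15.

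The 10 genes and all lists were chosen with earlier results of these data known. Named are the 10 genes, up to 4 called genes of largest change per list and diet comparison, all list genes called with hydrogen, and the 3 genes most like the one of the 10 with the largest diet change. A few other list genes, such as Slc44a4 and Slc22a2, are named to explain a count. Alternatives changed the filter, scaling, arrays in the fit, variance model, array weights, replicate block, arrays left out singly, and probe set choice.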

Additional observations from a re-analysis of the deposited data

Results flagged for a closer look

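Among 60 groups of 4 arrays (15 probe sets in 4 groups), 2 held an array far from the other 3, both for the representative probe set of Slc44a1. Chance alone gives about 1 in 20 groups. In the CDAA controls replicate 3 read 6.55 log2, against 6.69 to 6.70 on the other arrays. In the hydrogen CDAA group replicate 2 read 7.45 log2, against 6.72 to 6.80.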

How the results depend on the processing

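Leaving out single arrays gave 4 to 5 of the 10 genes for the diet in control rats and 6 to 7 in hydrogen rats, and kept Chka as 1 call with hydrogen on the CDAA diet. The number of probe sets called was 0 to 11 for hydrogen on the normal diet (2 with all arrays), 21 to 346 for hydrogen on the CDAA diet (71; 346 without CDAA control replicate 2) and 0 to 21 for the interaction (1), and 0 to 1 listed pathway genes were called with hydrogen on the CDAA diet. Fitting only the compared groups gave 17 probe sets for hydrogen on the normal diet, and 2 probe sets and 0 of the 10 genes on the CDAA diet. For hydrogen on the normal diet array weights gave 46 probe sets, the trended robust fit 5 and the replicate block 1. The interaction had 3 with array weights and 0 with the replicate block. Whether same-numbered arrays are paired could not be told, because differently numbered pairs were not computed beside them. Of 24 same-numbered pairs 9 had deviations correlated above 0.1 (−0.129 to 0.325). Between the CDAA control and CDAA hydrogen groups the values were −0.079, 0.265, 0.325 and 0.19. The replicate block changed no call of the 10 genes. With the probe set of highest variance Pcyt1a was at −0.29 in hydrogen rats instead of 0.155, as it then rests on the dimmer set. Highest variance and the mean of probe sets each gave 1 listed pathway gene called with hydrogen on the CDAA diet. The causes of the other shifts were not tested. Of the log2 differences of the 10 genes under all alternatives, 1247 kept their direction and call, 36 uncalled ones changed sign, 3 lost and 3 gained a call, and 1 (Pcyt1a, above) was called with the opposite sign. The number of arrays limits precision.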

Other observations

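Values for 2 further genes of the lists were picked after they were seen. Abca1, the cholesterol and phospholipid exporter, differed with the diet by −0.17 log2 in control rats (limma adjusted p = 0.0466) and by 0.175 in hydrogen rats (adjusted p = 0.0363). The test of the difference between them gave 0.35 log2 and did not pass (adjusted p = 0.289), and another probe set of Abca1 fell by 0.99 log2 in control rats (adjusted p = 0.000142). A dim probe set of Gpam, the mitochondrial glycerol-phosphate acyltransferase, went from 4.00 to 4.46 log2 with the diet in control rats (adjusted p = 0.00183) and from 4.46 to 3.86 with hydrogen on the CDAA diet (adjusted p = 0.0142). The representative set of Gpam, also dim (group means of 4.25 to 4.39 log2), differed by −0.02 and −0.125 log2.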
